A study of Mus musculus with 11 samples.

Results

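PD-1+ Cxcr5- helper T cells were taken from the single-cell RNA library of the series by the transcripts detected in each cell. A member had at least 1 unique transcript count (unique molecular identifier, UMI) of Pdcd1, the gene of the inhibitory receptor PD-1, and none of Cxcr5, the chemokine receptor that guides T cells into B cell follicles. It also had none of Foxp3, the lineage factor of regulatory T cells (Treg), none of the B cell gene Cd79a, and at least 2 UMIs summed over Cd3d, Cd3e and Cd3g. Cells with 2 or more of the activation genes Egr1, Egr2, Egr3 and Nr4a1, or 2 or more of the proliferation genes Mki67, Top2a, Birc5 and Cdk1, were left out. Of 13190 barcodes that passed the quality limits of at least 500 genes and under 10% mitochondrial UMIs, 840 met the rule, or 6.37% (95% Clopper-Pearson interval 5.96 to 6.80).

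PD-1 is induced when the T cell receptor is engaged and is kept on cells that see antigen for long, where it dampens receptor signalling. Follicular helper T (Tfh) cells, which help B cells in germinal centres, carry much of it together with CXCR5 and depend on the transcription factor Bcl6. T cells that carry PD-1 without CXCR5 also occur, among them recently activated effector cells, exhausted or anergic cells, and in humans the peripheral helper cells described in inflamed joints.

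The study examined mouse Tfh and follicular regulatory T cells and the secreted Wnt and BMP antagonist Sostdc1. The library used here is the only single-cell sample among its 11 samples. Its CD4+CD44+ T cells were sorted out of the draining nodes of C57BL/6 mice heterozygous for a Sostdc1-EGFP allele, so all gates below share that genotype and sort. The labels used here give no immunization, age or number of pooled animals.

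The PD-1+ Cxcr5- cells were set against the other gates of the same library. The Tfh gate (604 cells) had at least 1 UMI each of Pdcd1 and Cxcr5. The double negative gate (5608 cells) had none of either, and both gates otherwise followed the same rule. Further gates held 641 Cxcr5+ PD-1- cells, 1943 Foxp3+ cells (Treg gate) and 505 Cd79a+ cells without CD3 (B gate). The B gate serves as a measure of free RNA for T cell genes. Because barcodes with any CD3 UMI were left out of it, its values may understate that free RNA. With 1 library there is no replicate, so no comparison carries a test. Intervals are 95% and cover counting error only, and the PD-1+ Cxcr5- cells were chosen by their own transcripts, so all values are descriptions of these cells.

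The library held 15002 distinct barcodes and 106127466 UMIs, with 500 to 78924 UMIs per barcode. The PD-1+ Cxcr5- cells had a median of 5618.5 UMIs, against 7026 in the Tfh gate, 5691.5 in the double negative gate and 4753 in the B gate. They had 5507087 UMIs in all, and levels are given as counts per 1000000 UMIs of the summed gate (CPM).

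The label was checked against genes outside the rule. Cd4 was detected in 70.5% of PD-1+ Cxcr5- cells, against 81.8% of the Tfh gate, 56.0% of the double negative gate and 7.52% of the B gate. Cd44, the other gene of the sort, was detected in 36.8% of PD-1+ Cxcr5- cells, against 50.7%, 21.9% and 14.5% in those 3 gates. Trac, the T cell receptor alpha constant gene, was detected in 95.1% of PD-1+ Cxcr5- cells and in 17.2% of the B gate. Cd8a was found in 6 of the 840 cells, or 0.714%, against 1.89% of the double negative gate. Cd4 and Trac were therefore detected in most PD-1+ Cxcr5- cells, and Cd44 in a minority. The word "negative" rests on a single transcript that is easily missed. When every cell was thinned to 3000 UMIs, 35.5% of Tfh-gate cells (209 of 588, 31.7 to 39.6) no longer showed a UMI of Cxcr5. The same thinning left 41.5% of PD-1+ Cxcr5- cells (311 of 749) with no UMI of Pdcd1. How many of the 840 cells carry Cxcr5 transcripts that were not sampled was not tested.

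Pdcd1 itself, which chose the cells, was present as 1 UMI in 587 of them (69.9%), as 2 UMIs in 137, as 3 or 4 UMIs in 82 and as 5 or more in 34, with a highest value of 15. In the Tfh gate 40.9% of cells had 1 UMI. The summed level was 244 CPM (231 to 258) in PD-1+ Cxcr5- cells, against 363 CPM in the Tfh gate, 41.2 CPM in the Treg gate and 1.58 CPM in the B gate. PD-1+ Cxcr5- cells thus sat nearer the lower limit of the Pdcd1 criterion than the cells of the Tfh gate did.

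Genes that reached 20 CPM in either of the gates compared were set side by side as log2 ratios of CPM + 5, a scale that understates the fold of low genes. A gene is called higher or lower where the ratio was 2-fold or more. Against the double negative gate, 102 of 5276 genes (1.93%) were higher in PD-1+ Cxcr5- cells and 16 (0.303%) lower, or 2.24% in either direction, and the median log2 ratio was 0.19. The count of higher genes includes Pdcd1, which the rule fixes. Set against the Tfh gate, 60 of 5510 genes (1.09%) were higher and 47 (0.853%) lower, or 1.94% in either direction, with a median of -0.05. Without cells with a UMI of CD8, gamma-delta or NKT genes the balance turned to 45 higher and 50 lower. The count of lower genes includes Cxcr5, again fixed by the rule. Ribosomal protein genes took 28.3% of UMIs in PD-1+ Cxcr5- cells, against 25.8% in the Tfh gate and 35.6% in the double negative gate, and their part in the ratios was not tested. A scaling that equalizes the gates by the trimmed mean of their log ratios brought the median against the double negative gate to -0.01 and the counts to 49 higher and 30 lower, so that 62.0% of called genes were higher, against 86.4% on the CPM scale. All ratios against the double negative gate below are on the CPM scale and are best read against the median of 0.19.

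**Figure D1:**
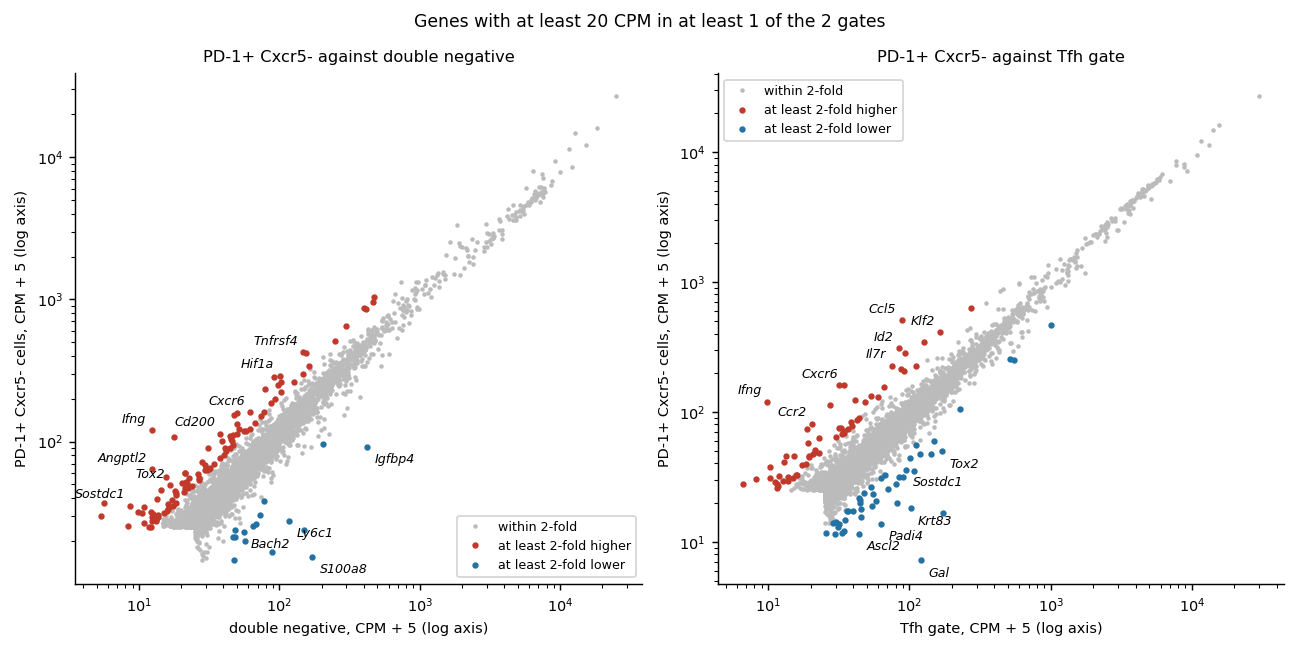
Level of each gene in PD-1+ Cxcr5- cells (vertical axis, CPM + 5, log scale) against the double negative gate (left) and the Tfh gate (right), with the genes of the rule left out. Red points are genes higher in PD-1+ Cxcr5- cells by 2-fold or more and blue points genes lower by as much; Ifng and Cxcr6 lie above the grey points in both panels, while Sostdc1, Tox2 and Angptl2 lie above them on the left and Sostdc1 and Tox2 below them on the right.

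The follicular helper genes stood between the other gates. Of the 17 listed genes tested against the double negative gate, 12 were at least 2-fold higher in PD-1+ Cxcr5- cells and none lower, with a median log2 ratio of 1.10. Of the 24 tested against the Tfh gate, 12 were at least 2-fold lower and none higher, with a median of -1.02. With the trimmed-mean scaling the count against the double negative gate was 6 of 16, with a median of 0.90. The list was chosen with earlier results of these data known. Among its genes, Angptl2, Cebpa, Il21, Krt83, P2rx7, Sostdc1 and Tox2 lead the cluster of this library that held 80.3% of the Tfh gate. The counts may therefore be partly set by the choice of genes, and they describe the list without testing it.

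Il21, a cytokine through which Tfh cells sustain B cell responses, was at 20.3 CPM (16.7 to 24.5) in PD-1+ Cxcr5- cells, 65.4 CPM in the Tfh gate, 3.29 CPM in the double negative gate and 0.63 CPM in the B gate. It was detected in 60 of the 840 cells (7.14%), against 26.3% of the Tfh gate. The fold was 6.17 (4.70 to 8.11) against the double negative gate and 0.311 against the Tfh gate. Il4, the other cytokine by which Tfh cells help B cells, was at 12.7 CPM in PD-1+ Cxcr5- cells, 40.8 CPM in the Tfh gate and 1.59 CPM in the double negative gate. Both cytokines therefore held the same order over the 3 gates. The log2 ratio of Il4 against the double negative gate was 1.43, but 0.68 under a limit of 5% mitochondrial UMIs. Cxcl13, the B cell attractant that marks human peripheral helper cells, had 1 UMI in all 840 cells (0.18 CPM). It was also scarce in the Tfh gate (0.21 CPM) and the double negative gate (0.42 CPM).

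Sostdc1, the gene that carries the reporter, was at 30.5 CPM (26.1 to 35.5) in PD-1+ Cxcr5- cells, 89.5 CPM in the Tfh gate, 3.68 CPM in the double negative gate and 2.84 CPM in the B gate. Its fold was 8.28 (6.52 to 10.5) against the double negative gate and 0.341 (0.283 to 0.409) against the Tfh gate. The log2 ratio against the Tfh gate was -1.41, but -0.43 when both gates were limited to cells with at least 2 Pdcd1 UMIs. It was detected in 51 of 840 PD-1+ Cxcr5- cells (6.07%), 15.7% of the Tfh gate, 1.11% of the double negative gate and 1.58% of the B gate. At an equal 3000 UMIs per cell the shares were 4.81% in PD-1+ Cxcr5- cells and 11.4% in the Tfh gate. Sostdc1 UMIs thus came from few cells in every gate, with at most 15 UMIs in any PD-1+ Cxcr5- cell.

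Among the transcription factors, Bcl6 was at 22.7 CPM (18.9 to 27.0) in PD-1+ Cxcr5- cells, 75.5 CPM in the Tfh gate, 8.26 CPM in the double negative gate and 24.9 CPM in the B gate, whose cells also express it. Its log2 ratio was -1.54 against the Tfh gate and 1.06 against the double negative gate, or 0.91 under the trimmed-mean scaling and 0.98 under a limit of 5% mitochondrial UMIs. Tox2, a factor of Tfh and of exhausted T cells, was at 44.7 CPM in PD-1+ Cxcr5- cells, 165 CPM in the Tfh gate and 11.6 CPM in the double negative gate. Maf, which promotes Il21 and Il4 expression, was at 416 CPM in PD-1+ Cxcr5- cells, 688 CPM in the Tfh gate and 151 CPM in the double negative gate. Maf was thus within 2-fold of the Tfh gate (log2 ratio -0.72) whereas Tox2 was not (-1.77). Several other genes of the Tfh gate were low in PD-1+ Cxcr5- cells. Ascl2, a factor that induces Cxcr5, was at 6.54 CPM in PD-1+ Cxcr5- cells against 39.3 CPM in the Tfh gate, and Cebpa was at 14.7 against 76.6 CPM. The keratin gene Krt83 was at 13.1 against 97.5 CPM, and Padi4, a peptidylarginine deiminase, was at 8.72 against 57.9 CPM. Gal, the neuropeptide galanin, gave 12 UMIs in 3 PD-1+ Cxcr5- cells (2.18 CPM), against 116 CPM from 28 cells of the Tfh gate.

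Some other genes of the same programme differed less from the Tfh gate. Cd200, an inhibitory ligand, was at 109 CPM in PD-1+ Cxcr5- cells, 84.2 CPM in the Tfh gate and 33.1 CPM in the double negative gate, and its fold against the Tfh gate was 1.30 (1.14 to 1.48). Icos, the costimulator needed for Tfh cells, was at 333 CPM in PD-1+ Cxcr5- cells, 355 CPM in the Tfh gate and 156 CPM in the double negative gate, with a log2 ratio of 1.07 against the double negative gate that was 0.86 under the trimmed-mean scaling. Angptl2, a secreted angiopoietin-like protein, was at 58.8 CPM in PD-1+ Cxcr5- cells, 99.4 CPM in the Tfh gate and 7.46 CPM in the double negative gate. Izumo1r and Nt5e encode folate receptor 4 and CD73, a pair used to mark anergic helper T cells and also found on Tfh cells. Izumo1r was at 408 CPM in PD-1+ Cxcr5- cells, 608 CPM in the Tfh gate and 224 CPM in the double negative gate, and Nt5e at 65.2, 73.8 and 29.2 CPM in the same gates. These 5 genes were within 2-fold of the Tfh gate, unlike Bcl6, Tox2, Il21 and Sostdc1. The receptor P2rx7, which senses extracellular ATP, was not within 2-fold of the Tfh gate. It was at 30.3 CPM in PD-1+ Cxcr5- cells, 102 CPM in the Tfh gate and 12.4 CPM in the double negative gate.

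**Figure D2:**
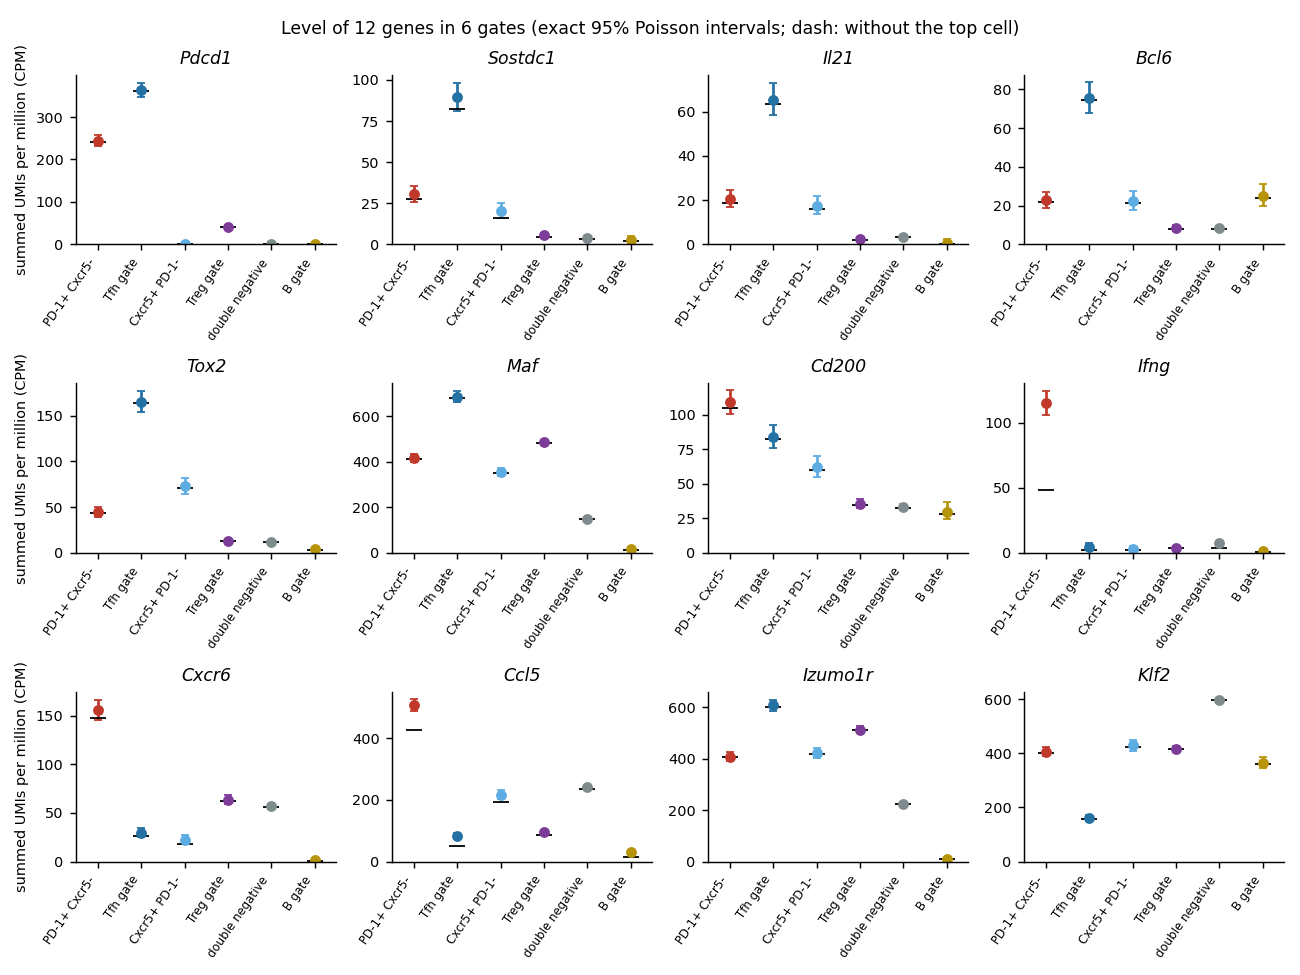
Level (CPM) of 12 genes in 6 gates, each point with its 95% counting interval, and a dash for the level without the cell that holds most UMIs of the gene. Il21, Sostdc1, Bcl6 and Tox2 in PD-1+ Cxcr5- cells lie between the Tfh gate and the double negative gate, whereas Ifng and Cxcr6 are higher in PD-1+ Cxcr5- cells (115 and 156 CPM) than in either.

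Cxcr5+ PD-1- cells, which lack the other of the pair of Tfh genes, are a further point of comparison. Il21 was at 20.3 CPM (16.7 to 24.5) in PD-1+ Cxcr5- cells and 17.5 CPM (13.7 to 22.0) in Cxcr5+ PD-1- cells, and Bcl6 was at 22.7 and 22.3 CPM in the same order. Sostdc1 was at 30.5 CPM in PD-1+ Cxcr5- cells and 20.1 CPM in Cxcr5+ PD-1- cells, and Tox2 was at 44.7 and 72.8 CPM. Detection of either gene of the pair alone thus went with similar Il21 and Bcl6 levels within counting error. Ifng and Cxcr6 differed, at 115 and 156 CPM in PD-1+ Cxcr5- cells against 2.91 and 21.8 CPM in Cxcr5+ PD-1- cells. Klf2 was at 405 CPM in PD-1+ Cxcr5- cells and 430.0 CPM in Cxcr5+ PD-1- cells.

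The rule also set aside 88 PD-1+ Cxcr5- cells with 2 or more of the activation genes that otherwise met it (median 7497 UMIs). Cd200 was at 109 CPM in the PD-1+ Cxcr5- cells kept and 272 CPM in the cells set aside, Tnfrsf4 at 423 and 788 CPM, and Il21 at 20.3 and 63.6 CPM. Cxcr6 was near the same level in both, at 156 and 163 CPM, and Bcl6 was at 22.7 and 26.3 CPM. The kept cells therefore had less Cd200, Tnfrsf4 and Il21 than those set aside, and the depth of the cells differed beside it.

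T helper 1 and cytotoxic genes were mostly higher in PD-1+ Cxcr5- cells than in the Tfh gate, and some were higher than in the double negative gate. Of 12 tested against the Tfh gate, 10 were at least 2-fold higher and none lower, with a median log2 ratio of 1.54. Against the double negative gate 5 of 12 were at least 2-fold higher, with a median of 0.89, and 3 of 12 under the trimmed-mean scaling. The promoters of Ifng and Cxcr6, the highest ratios of this group against the double negative gate, and of Il21, the cytokine of the follicular group, are shown for the sequence contexts of the 3 genes. They run from 250 bases before to 50 bases after the start and come from RefSeq on build GRCm38.p6. Capitals mark matches on either strand to GGAAA, the core bound by NFAT factors downstream of the T cell receptor, to the AP-1 motif TGANTCA, or to the T-box motif GTGTGA. The Ifng promoter lies at chr10:118440796-118441095 (plus strand), that of Cxcr6 at chr9:123806227-123806526 (plus strand) and that of Il21 at chr3:37232587-37232886 (minus strand).
Ifng: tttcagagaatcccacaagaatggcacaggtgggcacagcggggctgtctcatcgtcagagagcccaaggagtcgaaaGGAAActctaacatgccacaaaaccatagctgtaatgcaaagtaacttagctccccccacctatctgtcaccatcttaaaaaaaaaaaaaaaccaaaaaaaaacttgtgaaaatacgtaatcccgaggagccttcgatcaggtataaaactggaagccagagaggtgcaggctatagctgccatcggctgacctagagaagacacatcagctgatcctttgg
Cxcr6: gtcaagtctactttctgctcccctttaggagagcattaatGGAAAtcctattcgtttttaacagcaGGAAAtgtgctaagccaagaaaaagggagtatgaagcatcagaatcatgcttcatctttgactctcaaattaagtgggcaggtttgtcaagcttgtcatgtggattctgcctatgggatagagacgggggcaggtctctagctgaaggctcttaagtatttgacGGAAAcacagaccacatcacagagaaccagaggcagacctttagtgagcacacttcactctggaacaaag
Il21: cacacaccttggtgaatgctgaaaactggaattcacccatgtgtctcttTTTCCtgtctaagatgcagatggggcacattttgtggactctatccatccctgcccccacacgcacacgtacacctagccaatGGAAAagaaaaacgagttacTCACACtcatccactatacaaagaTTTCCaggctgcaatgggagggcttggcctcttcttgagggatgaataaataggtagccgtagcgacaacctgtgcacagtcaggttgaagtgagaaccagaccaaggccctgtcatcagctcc
The Ifng window held 1 NFAT core, the Cxcr6 window 3 and the Il21 window 3, and the Il21 window also held 1 T-box motif. The AP-1 motif was in none of the 3 windows. Of 32851 promoters of the same length, 61.3% held the NFAT core, 7.81% the AP-1 motif and 14.5% the T-box motif, so the matches are a description of the windows. Sostdc1 and Ccl5 had no entry in the promoter table.

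Ifng, the cytokine of T helper 1 cells, was at 115 CPM (106 to 124) in PD-1+ Cxcr5- cells, 4.86 CPM in the Tfh gate, 7.31 CPM in the double negative gate and 1.26 CPM in the B gate. Its 633 UMIs came from 56 cells (6.67%), of which 1 held 368 and another held 143. Without the cell with most Ifng UMIs in each gate the level was 48.2 CPM in PD-1+ Cxcr5- cells, 2.33 CPM in the Tfh gate and 3.51 CPM in the double negative gate. The log2 ratio was then 2.86 against the Tfh gate and 2.65 against the double negative gate, compared with 3.60 and 3.28 with it. The cell with 143 UMIs stays in the 48.2 CPM and in these ratios, and a level without both cells was not computed. The share of cells with a UMI, which a single cell does not move, was 6.67% in PD-1+ Cxcr5- cells, 1.99% in the Tfh gate, 1.52% in the double negative gate and 0.792% in the B gate.

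Cxcr6, a chemokine receptor of tissue-homing effector cells, was at 156 CPM (145 to 166) in PD-1+ Cxcr5- cells, 29.4 CPM in the Tfh gate, 56.9 CPM in the double negative gate and 1.58 CPM in the B gate. It was detected in 154 PD-1+ Cxcr5- cells (18.3%) and was 5.29-fold higher (4.42 to 6.38) than in the Tfh gate. Ccl5, a chemokine of effector and memory T cells, was at 506 CPM in PD-1+ Cxcr5- cells, 83.1 CPM in the Tfh gate and 243 CPM in the double negative gate. Its log2 ratio against the double negative gate was 1.05, but 0.85 without the cell with most Ccl5 UMIs in each gate and 0.83 under the trimmed-mean scaling. Nkg7, a protein of cytotoxic granules, was at 156 CPM in PD-1+ Cxcr5- cells, 26.6 CPM in the Tfh gate and 73.0 CPM in the double negative gate. Against the Tfh gate all 3 genes were over 4-fold higher, while against the double negative gate the call of Ccl5 and Nkg7 depended on the scaling.

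Other genes of the group had the same direction. Gzmb, a granule protease, was at 69.2 CPM in PD-1+ Cxcr5- cells, 14.0 CPM in the Tfh gate and 50.5 CPM in the double negative gate. Id2, which opposes E proteins and the Tfh fate, was at 305 CPM in PD-1+ Cxcr5- cells, 79.1 CPM in the Tfh gate and 171 CPM in the double negative gate. Cxcr3, the T helper 1 chemokine receptor, was at 100 CPM in PD-1+ Cxcr5- cells against 51.8 CPM in the Tfh gate, with a log2 ratio of 1.22 against the double negative gate and 0.89 against the Tfh gate. Tbx21, the gene of the lineage factor T-bet, was under the level limit at 6.90 CPM in PD-1+ Cxcr5- cells, 1.06 CPM in the Tfh gate and 2.52 CPM in the double negative gate. Gzmb and Id2 thus differed by 2-fold from the Tfh gate and not from the double negative gate, and Cxcr3 the other way round.

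Among T helper 17 genes, the cytokine genes Il17f and Il22 came from few cells. At least 2 of the 13 listed genes were found in 187 of 840 PD-1+ Cxcr5- cells (22.3%). Of 7 tested, 5 were at least 2-fold higher in PD-1+ Cxcr5- cells than in the double negative gate (median log2 ratio 1.06, 3 under the trimmed-mean scaling). In the comparison with the Tfh gate 3 were higher and 1 lower (median 0.93). Il17f, a cytokine that recruits neutrophils, was at 22.7 CPM from 19 PD-1+ Cxcr5- cells, against 1.69 CPM in the Tfh gate and 7.40 CPM in the double negative gate. Il22, a cytokine that acts on epithelia, was at 27.2 CPM from 38 PD-1+ Cxcr5- cells, against 41.7 CPM in the Tfh gate and 4.91 CPM in the double negative gate. Il1r1, a receptor for interleukin 1, was the lower gene against the Tfh gate, at 26.1 CPM in PD-1+ Cxcr5- cells, 58.4 CPM in the Tfh gate and 7.52 CPM in the double negative gate. Its log2 ratio against the Tfh gate lost the 2-fold call under 6 alternatives, among them -0.58 with at least 2 Pdcd1 UMIs. Il17f and Il22 therefore had different orders: Il17f was highest in PD-1+ Cxcr5- cells and Il22 in the Tfh gate. Of the T helper 2 list, 2 genes were tested against the double negative gate and 3 against the Tfh gate, and the only call was Il4, lower than in the Tfh gate (medians 0.55 and -0.07).

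Genes tied to repeated or incomplete stimulation were compared by role. Of 10 tested factors of exhaustion and chronic stimulation, 6 were at least 2-fold higher in PD-1+ Cxcr5- cells than in the double negative gate, namely Batf, Bhlhe40, Irf4, Maf, Tox and Tox2 (median 1.14). Under the trimmed-mean scaling 4 were. Bhlhe40, Id2 and Irf4 were higher, and Tox2 lower, than in the Tfh gate (median -0.48). The call of Irf4 against the Tfh gate was lost after thinning (0.94), with the mean of single-cell CPM (0.95) and with no activation limit (0.94), and that of Bhlhe40 within 4000 to 8000 UMIs (0.95). Tox, which maintains exhausted T cells and also acts in Tfh cells, was at 108 CPM in PD-1+ Cxcr5- cells, 188 CPM in the Tfh gate and 44.6 CPM in the double negative gate. Irf4, induced by receptor signals, was at 24.3 CPM in PD-1+ Cxcr5- cells, 8.88 CPM in the Tfh gate and 7.37 CPM in the double negative gate. Bhlhe40, a factor of cytokine-producing effector cells, was at 40.1 CPM in PD-1+ Cxcr5- cells, 14.6 CPM in the Tfh gate and 13.0 CPM in the double negative gate. The factors thus split into those higher in the Tfh gate (Tox, Tox2, Maf) and those higher in PD-1+ Cxcr5- cells (Irf4, Bhlhe40).

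Of 6 coinhibitory receptor genes tested against the double negative gate, Lag3 and Ctla4 were at least 2-fold higher in PD-1+ Cxcr5- cells (median 0.66, 1 under the trimmed-mean scaling). Lag3, which binds MHC class II, was at 84.8 CPM in PD-1+ Cxcr5- cells, 77.0 CPM in the Tfh gate and 26.0 CPM in the double negative gate. Ctla4, which competes for CD80 and CD86, was at 114 CPM in PD-1+ Cxcr5- cells, 93.9 CPM in the Tfh gate and 52.6 CPM in the double negative gate. Neither differed by 2-fold from the Tfh gate, where Cd160 was the 1 of 7 tested that was called, lower in PD-1+ Cxcr5- cells (median 0.13). That call was lost with at least 2 Pdcd1 UMIs (log2 ratio -0.94) and without cells with Ikzf2, Gpr83 or Lrrc32 (-0.75). Havcr2, the gene of the exhaustion marker TIM-3, was under the level limit at 5.81, 1.48 and 3.05 CPM in the same gates, and Tigit at 7.08, 15.4 and 1.11 CPM. Of 11 anergy genes, 3 were higher than in the double negative gate (Lag3, Nrp1 and Nt5e, median 0.85, 1 under the trimmed-mean scaling). None was called against the Tfh gate in either direction (median -0.05).

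Costimulatory receptors of the TNF receptor family were among the genes higher in PD-1+ Cxcr5- cells than in the double negative gate. Tnfrsf4, the gene of OX40, was at 423 CPM in PD-1+ Cxcr5- cells, 252 CPM in the Tfh gate and 143 CPM in the double negative gate. Tnfrsf9, the gene of 4-1BB, was at 66.6 CPM in PD-1+ Cxcr5- cells, 35.1 CPM in the Tfh gate and 23.1 CPM in the double negative gate. Both were within 2-fold of the Tfh gate (log2 ratios 0.74 and 0.84) and past 2-fold against the double negative gate (1.54 and 1.35). Of the 10 costimulatory genes, 4 were called higher than in the double negative gate (median 0.75, 2 under the trimmed-mean scaling), and only Cd226 was called higher than in the Tfh gate (median 0.41), a call lost under a limit of 5% mitochondrial UMIs (0.93) and without cells with Ikzf2, Gpr83 or Lrrc32 (0.92).

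Genes of resting and memory cells lay between the gates in the opposite order by their medians. Of 15 tested against the double negative gate, Bach2, Dapl1 and Igfbp4 were at least 2-fold lower in PD-1+ Cxcr5- cells (median log2 ratio -0.72, 6 lower under the trimmed-mean scaling). Of 14 tested against the Tfh gate, Il7r and Klf2 were at least 2-fold higher (median 0.64). Klf2, which drives egress genes and opposes the Tfh fate, was at 405 CPM in PD-1+ Cxcr5- cells, 161 CPM in the Tfh gate and 598 CPM in the double negative gate, and its log2 ratio against the Tfh gate was 1.31, or 0.99 under a limit of 5% mitochondrial UMIs. Il7r, the survival receptor of resting and memory cells, was at 221 CPM in PD-1+ Cxcr5- cells, 69.8 CPM in the Tfh gate and 312 CPM in the double negative gate. Ccr7, which holds T cells in the T zone, was at 109 CPM in PD-1+ Cxcr5- cells, 57.9 CPM in the Tfh gate and 220 CPM in the double negative gate. Bach2, a repressor of effector programmes, was at 18.2 CPM in PD-1+ Cxcr5- cells, 12.7 CPM in the Tfh gate and 50.6 CPM in the double negative gate. Igfbp4, at 86.8 CPM in PD-1+ Cxcr5- cells, was close to the Tfh gate (71.1 CPM) and low against the double negative gate (419 CPM).

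Among chemokine and egress receptors, 4 of 10 tested (Ccr6, Cxcr3, Cxcr4 and Cxcr6) were higher than in the double negative gate (median 0.69). The call of Ccr6 was lost under the trimmed-mean scaling (0.88) and that of Cxcr4 under a limit of 5% mitochondrial UMIs (0.83). Of 11 tested against the Tfh gate, 3 were higher, Ccr2 and Cxcr6 among them, and S1pr2 was lower (median 0.86). Ccr2, an inflammatory chemokine receptor, was at 76.1 CPM in PD-1+ Cxcr5- cells, 15.4 CPM in the Tfh gate and 53.1 CPM in the double negative gate. S1pr2, which confines cells to the germinal centre, was at 12.2 CPM in PD-1+ Cxcr5- cells, 34.9 CPM in the Tfh gate and 4.94 CPM in the double negative gate. Its call against the Tfh gate was lost with at least 2 Pdcd1 UMIs (log2 ratio -0.84) and under a limit of 5% mitochondrial UMIs (-0.50). Ccr2 is also a gene of human peripheral helper cells. Of 9 tested genes known for those human cells, Icos, Il21, Maf and Tox were higher than in the double negative gate (median 0.97, 1 of 8 under the trimmed-mean scaling). Compared with the Tfh gate 2 were higher, Ccr2 among them, and Il21 was lower (median -0.44). Icos, Il21, Maf and Tox are also in the follicular list, so their calls cannot separate the human list from it. The log2 ratio of Il21 against the double negative gate stayed past 2-fold under the trimmed-mean scaling.

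**Figure D3:**
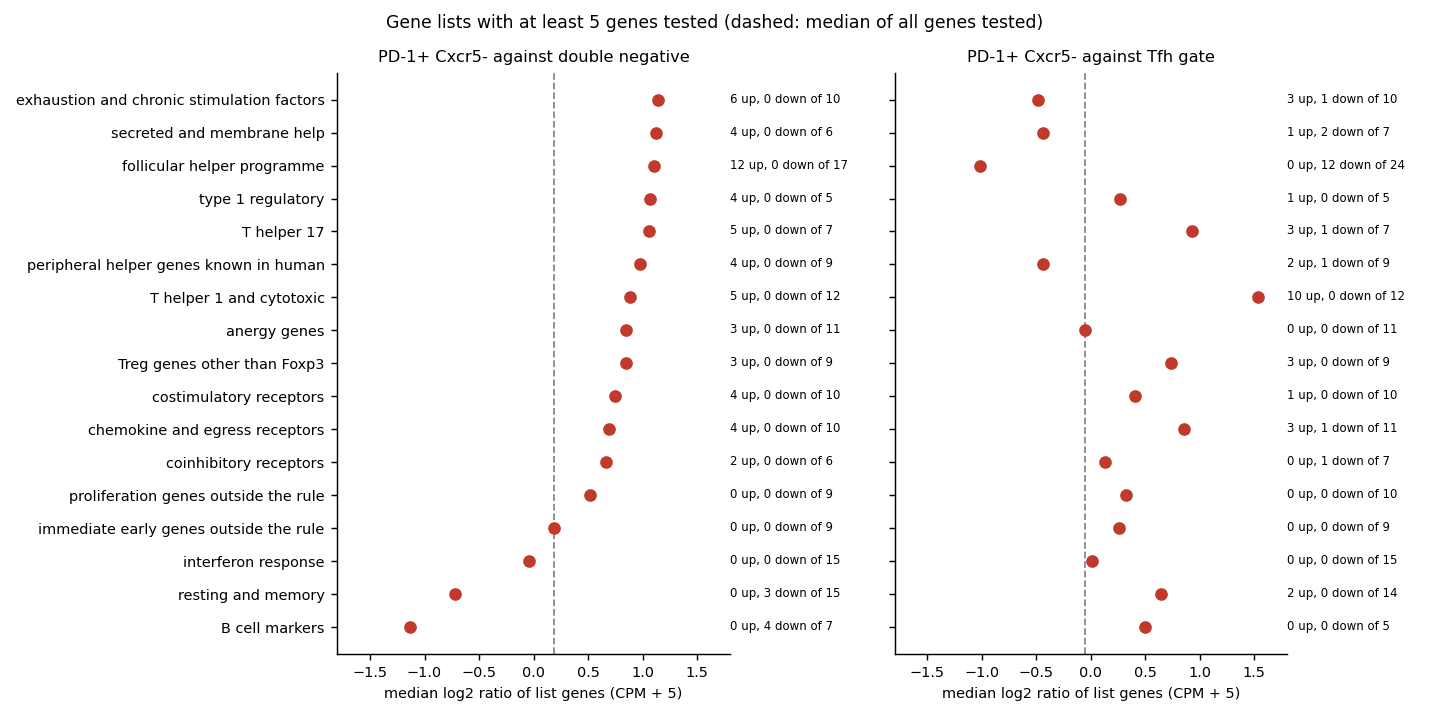
Median log2 ratio of the genes of each list with at least 5 genes tested (points), for PD-1+ Cxcr5- cells against the double negative gate (left) and the Tfh gate (right), with the number called up or down at the right edge. Dashed lines mark the median of all genes tested (0.19 and -0.05). The lists were chosen with earlier results of these data known. The follicular list lies right of the line against the double negative gate (median 1.10) and left of it against the Tfh gate (median -1.02), and the T helper 1 list lies right of it in both (0.89 and 1.54).

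Genes of secreted and membrane help that reached the level limit gave 4 of 6 higher than in the double negative gate (Ifng, Il21, Tnfsf11 and Tnfsf8, median 1.12, 1 of 5 under the trimmed-mean scaling). Against the Tfh gate 1 of 7 was higher (Ifng) and 2 were lower (Il21 and Il4, median -0.44). Of 5 tested genes of type 1 regulatory cells, Ahr, Ctla4, Lag3 and Maf were higher than in the double negative gate (median 1.06, 2 under the trimmed-mean scaling), and the median against the Tfh gate was 0.27. Il10, the cytokine that defines those cells, was at 3.09 CPM in PD-1+ Cxcr5- cells, 4.02 CPM in the Tfh gate and 1.56 CPM in the double negative gate.

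Several lists did not separate PD-1+ Cxcr5- cells from either gate. None of 15 interferon response genes was called against the double negative gate (median -0.05) or the Tfh gate (0.01). None of the 9 tested immediate early genes outside the rule was called (medians 0.19 and 0.25), and the rule had removed cells with 2 or more of 4 such genes. Proliferation genes outside the rule gave no call of 9 and of 10 (medians 0.52 and 0.32), after the rule had removed cycling cells.

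Markers of other cells were measured in the same barcodes. At least 3 UMIs of defining B cell genes were found in 4 PD-1+ Cxcr5- cells (0.476%), 0.993% of the Tfh gate and 0.820% of the double negative gate. At least 3 of defining myeloid genes were found in 16 PD-1+ Cxcr5- cells (1.90%), 1.16% of the Tfh gate and 1.66% of the double negative gate. The summed level of the 13 B cell markers was 677 CPM in PD-1+ Cxcr5- cells, 697 CPM in the Tfh gate and 951 CPM in the double negative gate, and that of the 12 myeloid markers was 205, 364 and 368 CPM in the same gates. The B cell list was lower than in the double negative gate in 4 of 7 tested genes (median -1.13), and the myeloid list in 2 of 4 (median -1.12). Against the Tfh gate no B cell gene of 5 (median 0.50) and 1 myeloid gene of 3 (lower, median -0.12) was called. The 1 plasma cell gene tested was within 2-fold (0.47 against the double negative gate and 0.12 against the Tfh gate). The genes called lower were H2-Aa, H2-Ab1, H2-Eb1 and Ly6d of the B cell list and Lyz2 and Tyrobp of the myeloid list. Without cells with at least 3 UMIs of the defining genes, which include Ly6d, Lyz2 and Tyrobp, none of the 6 was called, with log2 ratios between -0.24 (Ly6d) and 0.085 (H2-Eb1). A UMI of the CD8, gamma-delta or NKT genes was found in 13.5% of PD-1+ Cxcr5- cells, 121 of the 604 cells of the Tfh gate, 11.7% of the double negative gate and 3.37% of the B gate. The summed level of the whole list of 12 CD8, NK, NKT and gamma-delta T markers was 79.2 CPM in PD-1+ Cxcr5- cells, 56.5 CPM in the Tfh gate and 76.9 CPM in the double negative gate. No gene of this list was called against the double negative gate (2 tested, median 0.10), and 1 of 3 was lower than in the Tfh gate (median 0.28). Without every cell that held a UMI of the CD8, gamma-delta or NKT genes, the log2 ratio against the Tfh gate was 3.66 for Ifng, 1.89 for Cxcr6, 2.36 for Ccl5 and 2.18 for Nkg7. In the same setting 9 of 12 T helper 1 and cytotoxic genes were called higher than in the Tfh gate.

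Treg genes other than Foxp3 were also present. Of 9 tested, Ctla4, Nrp1 and Tnfrsf9 were higher than in the double negative gate (median 0.85, 1 under the trimmed-mean scaling), and Capg, Il2ra and Itgae were higher than in the Tfh gate (median 0.73). The call of Itgae was lost under a limit of 5% mitochondrial UMIs (0.54), with at least 2 Pdcd1 UMIs (0.87) and without cells with CD8, gamma-delta or NKT genes (0.997). A UMI of Ikzf2, Gpr83 or Lrrc32, genes typical of Treg, was found in 45.0% of PD-1+ Cxcr5- cells, 60.9% of the Tfh gate, 25.9% of the double negative gate, 85.6% of the Treg gate and 8.12% of the B gate. Ikzf2, the gene of Helios, was at 220 CPM in PD-1+ Cxcr5- cells, 261 CPM in the Tfh gate, 125 CPM in the double negative gate and 849 CPM in the Treg gate. Gpr83 and Lrrc32 were low, at 4.54 and 4.90 CPM in PD-1+ Cxcr5- cells against 33.4 and 47.3 CPM in the Treg gate. Ikzf2 is also expressed by Tfh cells, so of these 3 genes the pair of Gpr83 and Lrrc32 separated the Treg gate most. With every cell that held a UMI of any of the 3 left out, 462 members remained.

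Further genes had large ratios outside the lists. Nrn1, the gene of neuritin, was at 41.0 CPM in PD-1+ Cxcr5- cells, 8.46 CPM in the Tfh gate and 9.28 CPM in the double negative gate, with log2 ratios of 1.77 and 1.69. Cish, a feedback inhibitor of cytokine signals, was at 32.5 CPM in PD-1+ Cxcr5- cells, 5.29 CPM in the Tfh gate and 20.8 CPM in the double negative gate. Hif1a, the hypoxia-inducible factor, was at 287 CPM in PD-1+ Cxcr5- cells, 533 CPM in the Tfh gate and 95.3 CPM in the double negative gate. Nrn1 was thus high against both gates, Cish against the Tfh gate and Hif1a against the double negative gate. Other high values came from few cells. Spp1, the gene of osteopontin, was at 32.1 CPM from 13 PD-1+ Cxcr5- cells, 1 of which held 59 UMIs, and its log2 ratio against the double negative gate was -0.025 without cells with Ikzf2, Gpr83 or Lrrc32. Ifitm1 was at 102 CPM from 25 cells, 1 of which held 149 UMIs.

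The 840 cells were also sorted by 3 sets of effector product genes. At least 1 UMI of Il21, Il4 or Sostdc1 was found in 134 PD-1+ Cxcr5- cells (16.0%, 13.5 to 18.6), 45.9% of the Tfh gate, 3.23% of the double negative gate and 1.98% of the B gate. Ifng, Ccl5 or Nkg7 was found in 205 (24.4%, 21.5 to 27.5), against 11.1% of the Tfh gate, 844 of the 5608 cells of the double negative gate and 8.32% of the B gate. Il17a, Il17f or Il22 was found in 58 (6.90%, 5.28 to 8.83), against 11.8% of the Tfh gate, 2.07% of the double negative gate and 0.990% of the B gate. All 3 shares in PD-1+ Cxcr5- cells were above the B gate and the double negative gate. Thinned to 3000 UMIs, the shares in PD-1+ Cxcr5- cells were 11.2%, 18.6% and 5.07%, against 29.8%, 6.97% and 6.80% in the Tfh gate, 2.03%, 10.6% and 1.37% in the double negative gate, and 1.10%, 5.51% and 0.881% in the B gate. No product of any set was detected in 486 PD-1+ Cxcr5- cells (57.9%), and products of 2 or 3 sets were detected in 42, at this depth.

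Co-detection in single cells was counted beside the share of each gene in all 840 PD-1+ Cxcr5- cells, with no test. Of the 56 cells with Ifng, 30 also had Nkg7 (53.6%, against 16.5% of all PD-1+ Cxcr5- cells), 22 had Cxcr6 (39.3%, against 18.3%) and 17 had Ccl5 (30.4%, against 12.5%). Il21 was found in 6 of the 56 (10.7%, against 7.14%), Sostdc1 in 4 (7.14%, against 6.07%) and Il17f in none. Cells with Ifng thus held Nkg7, Cxcr6 and Ccl5 at shares above those of all PD-1+ Cxcr5- cells, and Il21 and Sostdc1 at shares close to them. Of the 51 cells with Sostdc1, 26 also had Tox2 and 10 had Il21. Of the 19 with Il17f, 15 also had Cxcr6 and 2 had Nkg7. Across whole sets, 28 cells (3.33%) had products of both the Il21, Il4 or Sostdc1 set and the Ifng, Ccl5 or Nkg7 set.

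Cells with the different products differed in other genes, given here as levels with no test because the products chose the cells. Cells with products of a single set were used: 172 with Ifng, Ccl5 or Nkg7, 43 with Il17a, Il17f or Il22, 97 with Il21, Il4 or Sostdc1, and the 486 with none. Cxcr6 was at 285, 396, 45.4 and 93.0 CPM in these sets in that order. Tox2 was at 16.7, 42.4, 93.6 and 38.9 CPM in the same 4 sets of cells. Klf2 was at 460.2, 291, 195 and 481 CPM and Izumo1r at 250.3, 266, 599 and 438 CPM in the same order. Pdcd1 itself differed less, at 237, 221, 281 and 235 CPM. Cells with Il21, Il4 or Sostdc1 thus had the lowest Klf2 and Cxcr6 and the highest Tox2 and Izumo1r of the 4 sets.

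Cells of the library were also clustered without the genes of the rule and without Sostdc1, and clusters are given by number and leading genes. Cluster 2, led by Sostdc1, Tox2, Gal, Il21 and Krt83, held 249 of the 840 PD-1+ Cxcr5- cells (29.6%, 26.6 to 32.9), 80.3% of the Tfh gate and 4.98% of the double negative gate. Cluster 4, led by Gpm6b, Itga4, Ramp3 and Il7r, held 168 (17.3 to 22.9%), against 3.15% of the Tfh gate and 15.4% of the double negative gate. Cluster 5, led by Dapl1, Actn1, Rflnb and Tcf7, held 121 (14.4%), against 8.44% and 11.6%. Cluster 9, led by Il17a, Ifng, Il17f and Cxcr6, held 87 (10.4%), against 1.16% and 6.44%, and cluster 12, led by Ccl5, Gzmk, Eomes and Nkg7, held 49 (5.83%), against 1.49% and 3.62%. PD-1+ Cxcr5- cells were thus spread over several clusters, whereas the Tfh gate lay mostly in 1. Clusters 3 and 6, which held 49.5% and 30.01% of the Treg gate, held 5.24% and 3.69% of PD-1+ Cxcr5- cells.

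**Figure D4:**
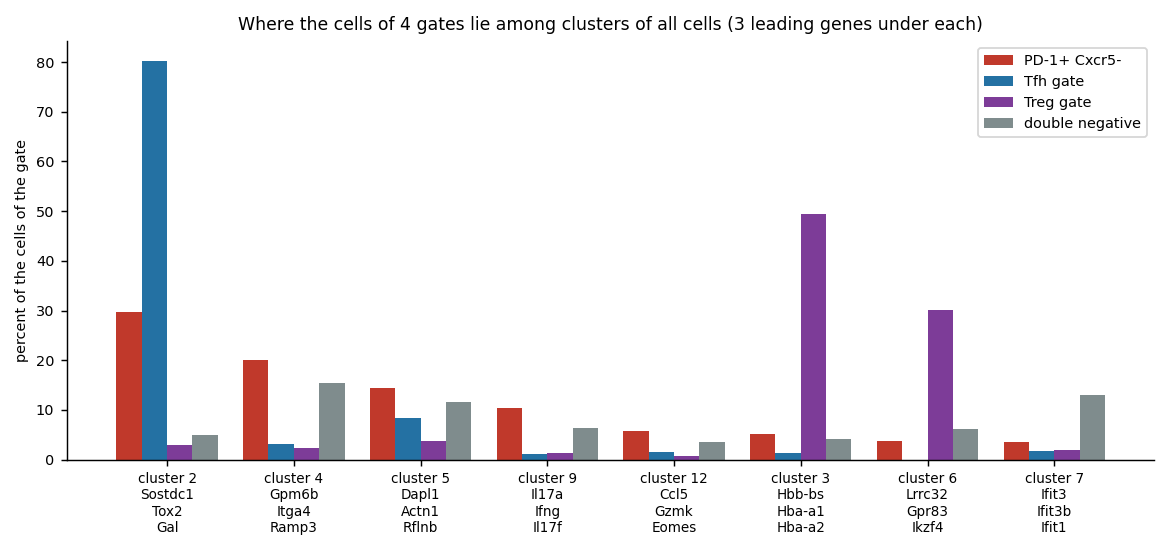
Share of the cells of each gate (percent, bars from 0) in 8 clusters of the library, for PD-1+ Cxcr5- cells, the Tfh gate, the Treg gate and the double negative gate. Cluster 2 holds 29.6% of PD-1+ Cxcr5- cells and 80.3% of the Tfh gate.

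Within cluster 2 the 249 PD-1+ Cxcr5- cells (median 5985 UMIs) were set beside 485 cells of the Tfh gate (6934 UMIs) and 279 of the double negative gate. Sostdc1 was at 89.4 CPM (75.8 to 105) in PD-1+ Cxcr5- cells, 106 CPM in the Tfh gate and 26.0 CPM in the double negative gate. Il21 was at 53.1 CPM in PD-1+ Cxcr5- cells, 79.7 CPM in the Tfh gate and 32.9 CPM in the double negative gate. Bcl6 was at 45.6 CPM in PD-1+ Cxcr5- cells, 88.6 CPM in the Tfh gate and 34.6 CPM in the double negative gate. Sostdc1 was thus near the Tfh gate inside the cluster, and Bcl6 was not. Gal was at 7.01 CPM in PD-1+ Cxcr5- cells, against 146 CPM in the Tfh gate and no UMI in the double negative gate. Krt83 was at 29.2 CPM in PD-1+ Cxcr5- cells against 122 CPM in the Tfh gate. Cd200 went the other way, at 182 CPM (163 to 204) in PD-1+ Cxcr5- cells, 94.0 CPM in the Tfh gate and 140 CPM in the double negative gate. The cluster was formed on these genes, except Sostdc1 and the genes of the rule, so the values describe it and test nothing.

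Within cluster 9 Ifng was at 863 CPM in PD-1+ Cxcr5- cells and 60.5 CPM in the 361 cells of the double negative gate, from 15 and 9 cells with a UMI. Without the cell with most Ifng UMIs the levels were 302 and 6.43 CPM, and the first of these still includes a cell with 143 UMIs. Cxcr6 was at 1079 CPM in PD-1+ Cxcr5- cells of the cluster and 605 CPM in the double negative gate, and Lag3 at 107 and 33.2 CPM. In cluster 12 Ccl5 was at 9673 CPM in PD-1+ Cxcr5- cells and 4887 CPM in the double negative gate, and Tox at 241 and 121 CPM. Each of these values was thus higher in the PD-1+ Cxcr5- cells than in the double negative cells of the same cluster. Other genes of cluster 9 were lower in the PD-1+ Cxcr5- cells. Ccl5 was at 179 CPM there, against 288 CPM in the double negative gate, and Klf2 at 473 against 740 CPM. In cluster 4 the levels were close, with Il7r at 647 against 627 CPM and Izumo1r at 408 against 409 CPM.

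The PD-1+ Cxcr5- cells were next described by their own number of Pdcd1 UMIs, which is part of the rule and carries counting noise. In cells with 1, 2, 3 or 4, and 5 or more UMIs, Angptl2 was at 28.6, 86.2, 133 and 204 CPM. Over the same 4 sets Hif1a was at 226, 313, 460 and 616 CPM, and Lag3 at 64.0, 97.1, 128 and 221 CPM. Bcl6 was at 16.2, 29.5, 32.0 and 64.7 CPM and Maf at 370, 472, 544 and 558 CPM. The summed levels of these 5 genes were higher with each step, but among them the intervals of neighbouring sets did not overlap at any step for Hif1a alone. Without the cell with most Maf UMIs in each set, Maf was at 365, 461, 525 and 499.9 CPM. Median depths were 5465, 5672, 6517 and 5884.5 UMIs. Klf2 was at 463, 315, 308 and 163 CPM and Ccr7 at 129, 84.0, 64.0 and 23.8 CPM, lower with each step, with overlapping intervals between some neighbouring sets. Sostdc1 followed no such order, at 10.5, 43.6, 130 and 40.9 CPM, nor did Cxcr6, at 133, 256, 169 and 95.3 CPM, or Izumo1r, at 398, 394, 524 and 347 CPM.

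**Figure D5:**
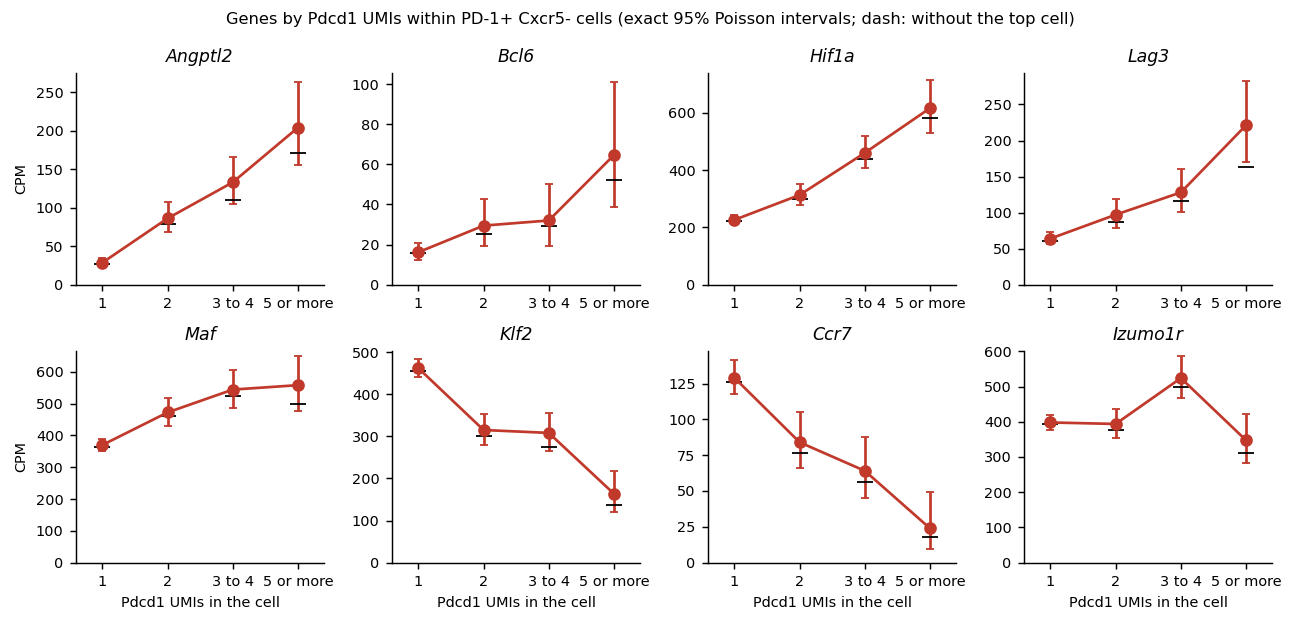
Level (CPM) of 8 genes in PD-1+ Cxcr5- cells with 1, 2, 3 or 4, and 5 or more Pdcd1 UMIs (587, 137, 82 and 34 cells), with 95% counting intervals and a dash for the level without the cell that holds most UMIs of the gene. Angptl2, Hif1a, Lag3, Bcl6 and Maf are higher and Klf2 and Ccr7 lower with each step, and Izumo1r has no order.

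Cells just inside and just outside each limit of the rule were compared once. With 1 Pdcd1 UMI (inside, 587 cells) against none (outside, 5608 cells), Maf was at 370 against 151 CPM, Il21 at 16.7 against 3.29 CPM and Sostdc1 at 10.5 against 3.68 CPM. With no Cxcr5 UMI (inside, 840 cells) against 1 (outside, 251 cells), Bcl6 was at 22.7 against 55.7 CPM, Tox2 at 44.7 against 116 CPM, Sostdc1 at 30.5 against 104 CPM and Cxcr6 at 156 against 38.5 CPM. The cells with 1 Cxcr5 UMI are part of the Tfh gate, so these values are not independent of the comparison with it. With no Foxp3 UMI (inside) against 1 (outside, 107 cells), Ikzf2 was at 220 against 1037 CPM and Maf at 416 against 613 CPM. With 1 activation gene (inside, 146 cells) against 2 (outside, 48 cells), Cd200 was at 153 against 240 CPM and Sostdc1 at 25.2 against 62.0 CPM. Across this limit Il21 and Ifng went the other way, at 23.6 against 18.1 CPM and 149 against 33.6 CPM. With 1 proliferation gene (inside, 232 cells, median 6426.5 UMIs) against 2 (outside, 41 cells, 12691 UMIs), Sostdc1 was at 35.4 against 1.87 CPM. The second of these levels is close to the floor. Ifng and Cxcr6 went the other way, at 243 against 380 CPM and 203 against 289 CPM, so the proliferating cells left out had more of both. The CD3 limit touched few cells, with 6 at 2 UMIs and 5 at 1 UMI.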

How the data were processed

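UMI counts of 1 single-cell library (CD4+CD44+ T cells, group taken from the labels) were used; the other 10 samples of the series were not analysed here. Per the labels, the library was made with version 2 of the Chromium 3′ kit. The deposited matrix holds whole-number UMI counts per gene and barcode and, per the file headers, comes from Cell Ranger 3.1.0, while the submitters' processing notes name Cell Ranger 2.1.0 and the builds mm9 and mm10. The matrix's build, annotation and cell filter were not given in the sources used here.

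Barcodes with at least 500 genes and under 10% mitochondrial UMIs were kept, and 835 and 977 barcodes, counted separately, missed these limits. Counts were summed per gate and scaled to CPM. Genes with at least 20 CPM in either gate were compared as log2 ratios with a pseudocount of 5 CPM and called at 2-fold. With 1 library no test was made; intervals are exact Poisson for levels, exact conditional binomial for folds and Clopper-Pearson for shares. The computation was tested on simulated counts. No column of the matrix was left without a sample.

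The members, the 21 gene lists and the rules were chosen with earlier results of these data known. Genes were named where they belong to the rule, are Sostdc1, Bcl6, Il21, Il4, Izumo1r or Nt5e, are among the 15 highest or 15 lowest ratios of a comparison (receptor segments, predicted genes and the like left out), or among the 4 largest of a list; the other named genes were chosen after their values were seen.

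Doublets were not removed; scores from 2 simulated doublets per cell put 9.40% of PD-1+ Cxcr5- cells, 13.9% of the Tfh gate and 6.42% of the double negative gate in the top 10%. Clusters used 2000 variable genes, 30 components, 20 neighbours and Leiden resolution 1. Tools were Python 3.11.15 with numpy 2.4.6, pandas 2.3.3, scipy 1.17.1, scikit-learn 1.9.0, leidenalg 0.10.2 and matplotlib 3.10.9. Alternatives changed the gates, filters, pseudocount, scaling and depth; leaving out the cell with most UMIs of a gene was added after seeing the data. For the alternative without B or myeloid cells the lists were narrowed to defining genes.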

Additional observations from a re-analysis of the deposited data

How the results depend on the processing

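The 840 PD-1+ Cxcr5- cells became 253 with at least 2 Pdcd1 UMIs, 430 within 4000 to 8000 UMIs, 478 under 5% mitochondrial UMIs and 462 without cells with Ikzf2, Gpr83 or Lrrc32. Genes higher than in the double negative gate numbered 206 with at least 2 Pdcd1 UMIs, 61 with a limit of 50 CPM and 49 under the trimmed-mean scaling, against 102. Lower genes numbered 43, 10, 27 and 30 with at least 2 Pdcd1 UMIs, without B or myeloid cells, without the highest doublet scores and under the trimmed-mean scaling, against 16. Against the Tfh gate, 34 were higher with 50 CPM and 91 with no limit, against 60, and 74 were lower within 4000 to 8000 UMIs and 26 with 50 CPM, against 47. Of 66 named genes past 2-fold against the double negative gate, 29 stayed so under each of 13 of the 16 alternatives, those other than the pseudocount and the level filters, and 32 of 48 against the Tfh gate did. The log2 ratio changed sign against the double negative gate without B or myeloid cells for H2-Ab1 (0.062), H2-Eb1 (0.085), Lyz2 (0.034), S100a8 (0.013), S100a9 (0.25) and Tyrobp (0.070), and for S100a9 also within 4000 to 8000 UMIs (0.32) and without its top cell (0.22). Without cells with Ikzf2, Gpr83 or Lrrc32 it changed for Spp1 against the double negative gate (-0.025) and Stfa3 against the Tfh gate (-0.70). Against the Tfh gate it changed for Ly6d (-0.17 with at least 2 Pdcd1 UMIs, -0.23 within 4000 to 8000 UMIs) and Lyz2 (0.57 with at least 2 Pdcd1 UMIs, 0.43 without the highest doublet scores). Most of these genes mark B or myeloid cells; the cause was not tested. At a median of 5618.5 UMIs a cell without a UMI of a gene is not shown to lack it, and with 1 library differences between animals are not measured. No paired analysis was possible because there is 1 library.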
